A study of Mus musculus with 14 samples.

Results

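The 10 genes described here encode enzymes of NAD synthesis and were chosen by name. They are Afmid, Kmo, Kynu, Haao, Acmsd and Qprt of the kynurenine route, and Nampt, Naprt, Nadsyn1 and Nmnat1 of salvage and of the last steps. Each has 1 of the 49584 gene rows of the table. All 10 also passed the filter on low values, which kept the 15193 genes averaging 0.5 FPKM or more. FPKM is a read number scaled to gene length and to the assigned reads of the library, so that levels can be set beside each other between genes. Kidney RNA was sequenced from 4 groups of mice: Ripk4 conditional knockout (cKO) after cisplatin (n = 4), WT after cisplatin (n = 4), cKO untreated (n = 3) and WT untreated (n = 3). Cisplatin, a platinum drug that injures the proximal tubule, was given into the abdomen at 15 mg per kg, and kidneys were taken 4 days later. Ripk4 encodes a receptor-interacting kinase known from epidermal differentiation. The labels name neither the Cre line, the cells that carry the deletion, the strain, the age nor the sex of the mice, and they do not say whether each library is 1 animal. P-values therefore measure the spread between these libraries.

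NAD is the cofactor of many dehydrogenases and is consumed by sirtuins, PARPs and CD38. Cells make it from tryptophan by the kynurenine (de novo) route, from nicotinic acid by the Preiss-Handler route, or by recycling nicotinamide. The kidney, in particular the proximal tubule, is together with the liver an organ that can run the whole route from tryptophan. In the kynurenine route AFMID releases kynurenine, KMO hydroxylates it, KYNU cuts the product to 3-hydroxyanthranilate, and HAAO opens the ring of that compound. The unstable product either closes by itself to quinolinate, which QPRT turns into nicotinate mononucleotide, or is diverted by ACMSD away from NAD. NAPRT makes the same mononucleotide from nicotinic acid. NAMPT is the rate-limiting enzyme of nicotinamide salvage, NMNAT1 is the nuclear enzyme that adenylates both mononucleotides, and NADSYN1 amidates the final intermediate of the routes from tryptophan and nicotinic acid.

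The libraries held 36.7 to 77.0 M assigned reads, and the members' values rest on 152 to 18990 reads each. Ripk4 averaged 5.91 ± 2.3 FPKM in cKO and 10.1 ± 2.46 FPKM in WT after cisplatin (SD, n = 4 each). Without drug it averaged 4.09 ± 0.472 FPKM in cKO and 7.93 ± 0.682 FPKM in WT (SD, n = 3 each). The difference passed the test after cisplatin (log2 −0.72 ± 0.21, limma adjusted p = 0.0216) and not without drug (−0.81 ± 0.24, limma adjusted p = 1). All 10 proximal tubule markers examined (among them Slc34a1 and Lrp2) passed the filter. Their summed level was 5229 to 6062 FPKM in cKO untreated and 5510 to 5777 FPKM in WT untreated libraries. The cisplatin libraries numbered 1 of both genotypes stood apart with low endothelial and podocyte markers. The sum of 9 endothelial markers was 125.6 and 96.3 FPKM in cKO and WT cisplatin replicate 1, against 226.5 to 278.3 in the other cKO and 248.5 to 270.3 in the other WT cisplatin libraries.

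Without drug the 10 genes covered a wide range of levels. In WT untreated kidneys Haao was highest at 156.7 ± 4.4 FPKM, followed by Kmo at 86.5 ± 3.4, Qprt at 81.4 ± 2.43 and Nampt at 48.04 ± 5.94 (SD, n = 3 each). Acmsd averaged 36.8 ± 9.83, Naprt 27.6 ± 1.52, Nadsyn1 27.5 ± 1.89 and Afmid 25.3 ± 3.3 FPKM. Nmnat1 at 11.7 ± 0.456 and Kynu at 3.55 ± 1.35 were the lowest.  The libraries of Kmo and Qprt overlapped, as did each pair of neighbours from Nampt down to Afmid, whereas Haao and Kmo, Qprt and Nampt, Afmid and Nmnat1, and Nmnat1 and Kynu did not. In cKO untreated kidneys the highest 5 and the lowest 2 came in the same order, from Haao at 160.4 ± 11.2 to Kynu at 3.87 ± 2.09 FPKM. The plot of levels by library shows all 10 genes.

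**Figure D1:**
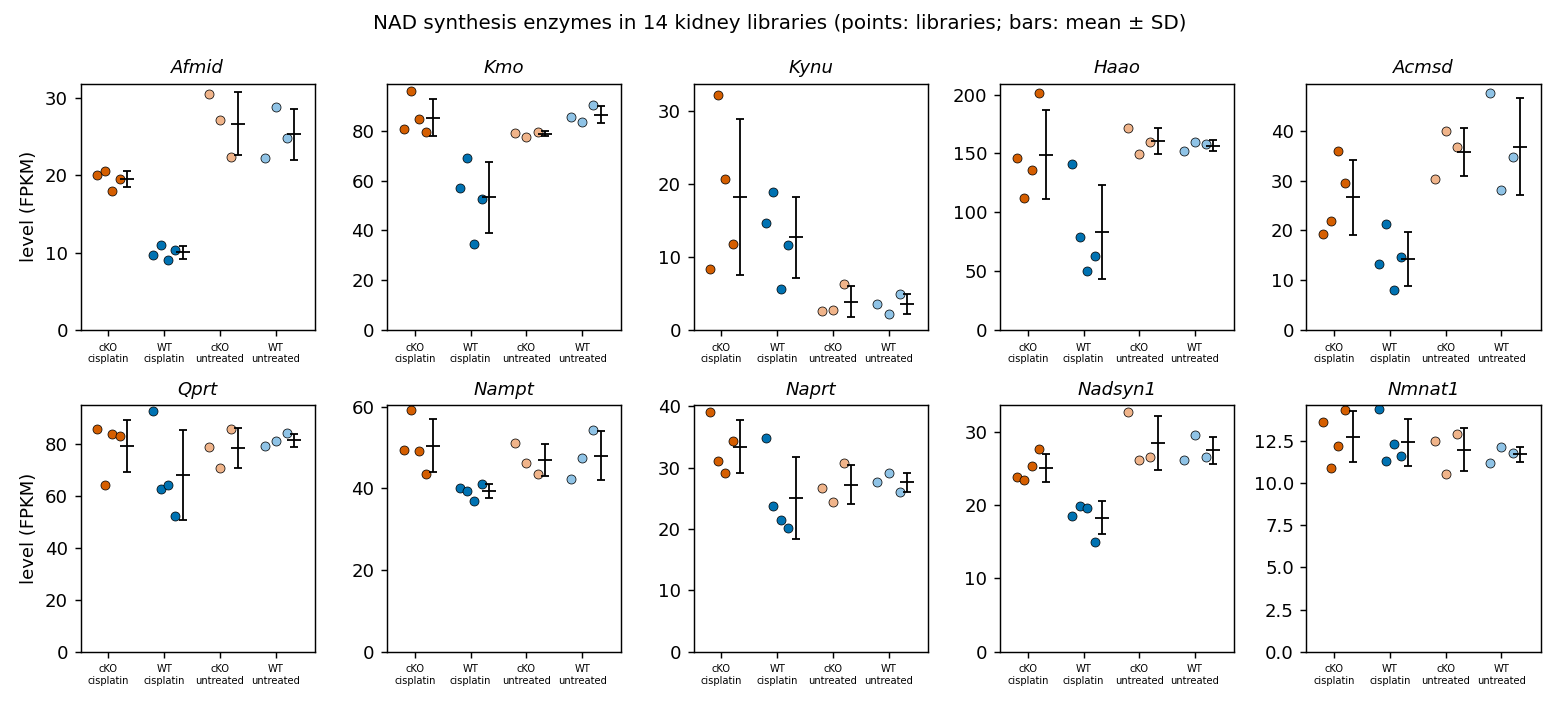
Levels of the 10 NAD synthesis enzymes in FPKM on linear axes from 0, 1 panel a gene, with a point for each library and the mean ± SD beside each group (n = 4, 4, 3 and 3 from left to right). Afmid lies at 9.08 to 11.02 FPKM in WT cisplatin and at 18.0 to 20.5 FPKM in cKO cisplatin libraries, while Kynu is higher in both cisplatin groups than in the untreated ones.

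Cisplatin against no drug in WT kidney sets these genes at day 4 beside those of untreated mice. No group is labelled as injected with vehicle, so effects of the drug and of the injection cannot be told apart. Of the 10, 5 fell, 1 rose and 4 did not pass the test (limma on log2(FPKM + 1), adjusted p under 0.05 over all genes tested). The 5 that fell are the kynurenine-route genes Afmid, Kmo, Haao and Acmsd and the amidating enzyme Nadsyn1, and the 1 that rose is Kynu. Over all genes tested 34.4% were called, 12.1% as lower and 22.3% as higher. At an unadjusted p under 0.05 it was 7 of the 10, against 44.3% of all genes. The median log2 fold change was −0.43 over the 10 members and 0.10 over all genes. Both other scalings brought the median of all genes close to 0, and called genes were then 51.8% (median-of-ratios) or 50.5% (quantile) higher, against 64.9% as deposited. The members were 1 higher and 6 lower under each. In bulk tissue, fewer cells of a type and less RNA per cell cannot be told apart.

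Afmid (ENSMUSG00000017718, mm10 chromosome 11, 117825924 to 117839908) had 9.65, 11.02, 9.08 and 10.3 FPKM in WT cisplatin libraries, against 22.2, 28.8 and 24.8 FPKM in WT untreated libraries. The groups lay far apart, with 10.02 ± 0.839 against 25.3 ± 3.3 (SD, n = 4 and 3). Its log2 fold change of −1.25 ± 0.12 (SE) had the smallest p of the 10 (adjusted p = 1.89e-05). Its span overlaps Tk1, a gene on the other strand at 12.5 ± 4.78 FPKM in WT cisplatin and 11.9 ± 2.64 in WT untreated kidneys, and the strand setting of the counting is not given in the sources used here.

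Acmsd (ENSMUSG00000026348, chromosome 1, 127729413 to 127767978), which diverts the route away from NAD, had 13.2, 21.2, 7.95 and 14.7 FPKM in WT cisplatin, against 47.5, 28.2 and 34.8 FPKM in WT untreated kidneys. The highest treated value lay under the lowest untreated one, and Acmsd fell by 1.35 ± 0.28 on the log2 scale (limma adjusted p = 0.00238). Haao (ENSMUSG00000000673, chromosome 17, 83831356 to 83846790) had 141.0, 79.3, 49.9 and 62.7 FPKM in WT cisplatin, against 151.8, 160.1 and 158.3 in WT untreated kidneys. WT cisplatin replicate 1 was close to the untreated ones and the other 3 were far below them. The change was −1.02 ± 0.27 (limma adjusted p = 0.0108).

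Kmo (ENSMUSG00000039783, chromosome 1, 175620381 to 175662116), a mitochondrial outer-membrane enzyme, had 57.1, 69.0, 34.5 and 52.8 FPKM in WT cisplatin, against 85.7, 83.5 and 90.2 FPKM in WT untreated libraries. The treated libraries spread more widely than the untreated ones, with no overlap. It fell by 0.73 ± 0.17 on the log2 scale (limma adjusted p = 0.00455). Kmo overlaps the abundant Fh1 on the other strand, which was at 193.8 ± 28.7 FPKM in WT cisplatin and 214.8 ± 7.03 in WT untreated kidneys. Nadsyn1 (ENSMUSG00000031090, chromosome 7, 143795584 to 143822849) had 18.5, 19.9, 19.6 and 15.0 FPKM in WT cisplatin, against 26.2, 29.6 and 26.6 FPKM in WT untreated libraries, a log2 fold change of −0.57 ± 0.11 (limma adjusted p = 0.00192).

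Kynu (ENSMUSG00000026866, chromosome 2, 43555329 to 43682715) went the other way. It had 14.6, 18.9, 5.64 and 11.6 FPKM in WT cisplatin, against 3.53, 2.21 and 4.91 FPKM in WT untreated libraries. The lowest treated library, replicate 3, lay just above the highest untreated one. The rise was 1.52 ± 0.45 (limma adjusted p = 0.0178) and lost its call without WT untreated replicate 2 (1.30, adjusted p = 0.0823, against 0.00303 to 0.0823 over all alternatives).

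Qprt, whose enzyme uses quinolinate, and Nampt, Naprt and Nmnat1 did not pass the test. Qprt (ENSMUSG00000030674, chromosome 7, 127107114 to 127122226) had 92.7, 62.7, 64.2 and 52.3 FPKM in WT cisplatin, against 79.2, 81.0 and 84.0 FPKM in WT untreated kidneys (−0.29 ± 0.16, limma adjusted p = 0.184). Nampt (ENSMUSG00000020572, chromosome 12, 32820335 to 32853369) had 40.1, 39.3, 37.0 and 41.0 FPKM in WT cisplatin, against 42.4, 47.4 and 54.3 FPKM in WT untreated kidneys. Its groups did not overlap, and its difference was −0.27 ± 0.11 (limma adjusted p = 0.0699). Naprt (ENSMUSG00000022574, chromosome 15, 75890964 to 75894481) was at 34.8, 23.7, 21.5 and 20.1 FPKM in WT cisplatin, against 27.6, 29.1 and 26.1 in WT untreated libraries (−0.17 ± 0.16, limma adjusted p = 0.462). Nmnat1 (ENSMUSG00000028992, chromosome 4, 149467572 to 149485202) was at 14.4, 11.3, 12.3 and 11.6 FPKM in WT cisplatin, against 11.2, 12.1 and 11.8 in WT untreated libraries (0.07 ± 0.12, limma adjusted p = 0.669, with the sign turned to −0.04 by median-of-ratios scaling and to −0.10 by quantile normalization). In Qprt and Naprt, WT cisplatin replicate 1 was above every untreated one and the other 3 were below. Without it both were called lower, Qprt by −0.45 (limma adjusted p = 0.00981) and Naprt by −0.33 (limma adjusted p = 0.0393). Over all alternatives the adjusted p ran from 0.0025 to 0.425 for Qprt and from 0.019 to 0.766 for Naprt. Nampt was called lower without WT untreated replicate 1 (−0.36, limma adjusted p = 0.045) and ran from 0.00791 to 0.285. In all, 7 of the 10 genes had groups that did not overlap, against 38.9% of the genes tested.

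**Figure D2:**
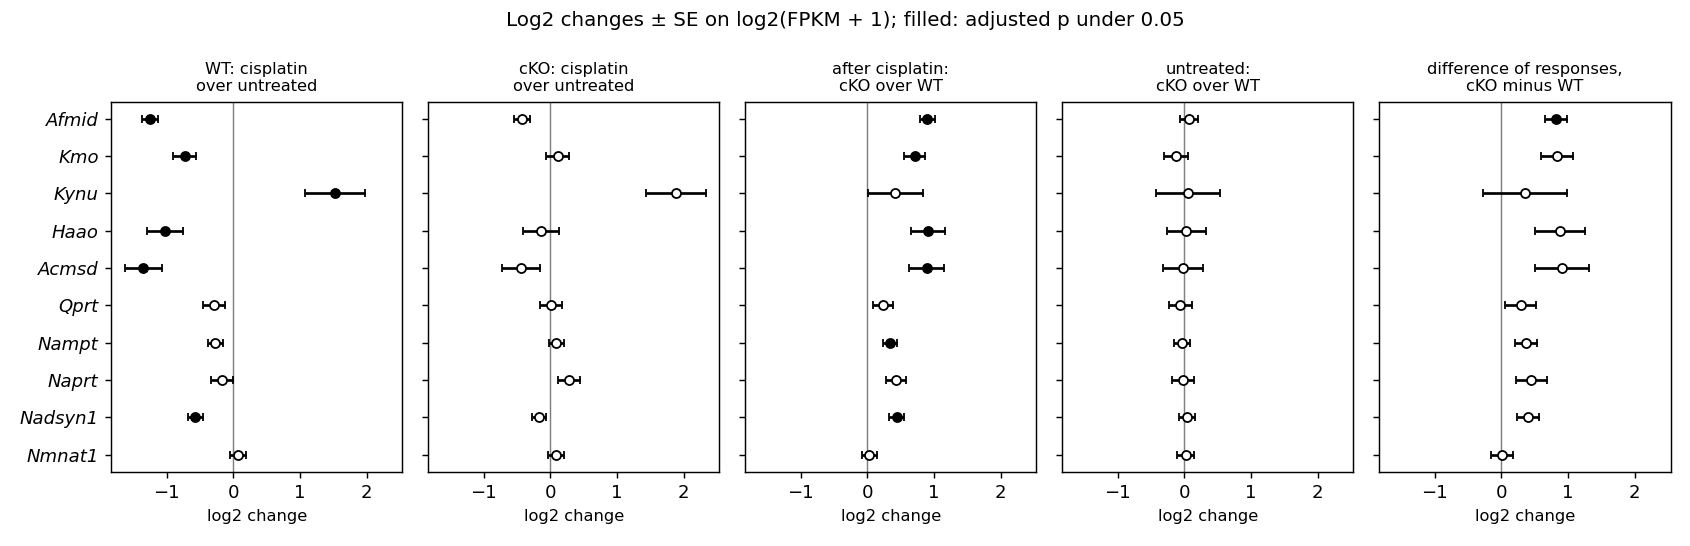
Log2 changes of the 10 genes on log2(FPKM + 1) with their standard errors, 1 panel for each of the 5 comparisons, with filled points for an adjusted p under 0.05. Filled points lie left of 0 for 5 genes and right of 0 for Kynu in WT, and right of 0 for 6 genes between cKO and WT after cisplatin.

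Promoters of 2 genes that fell and of 1 that did not pass the test, Nampt, are shown here because several members fell together. RefSeq (GRCm38.p6) gave a start for 8 of the 10 genes, and Kynu and Naprt are named only. The 250 bases before the start are printed from 5′ to 3′ on the gene's strand, with CpG dinucleotides in capitals. The window of Haao is chr17:83846791-83847040 (minus strand), of Kmo chr1:175631943-175632192 (plus strand) and of Nampt chr12:32820085-32820334 (plus strand). The RefSeq start used for Kmo lies inside the Kmo span given above, so its window falls within that gene and not before the first annotated base.
Haao: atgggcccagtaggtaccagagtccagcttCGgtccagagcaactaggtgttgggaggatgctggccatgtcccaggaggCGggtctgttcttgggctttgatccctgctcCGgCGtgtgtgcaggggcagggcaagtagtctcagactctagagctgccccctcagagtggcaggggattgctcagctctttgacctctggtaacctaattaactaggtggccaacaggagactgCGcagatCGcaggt
Kmo: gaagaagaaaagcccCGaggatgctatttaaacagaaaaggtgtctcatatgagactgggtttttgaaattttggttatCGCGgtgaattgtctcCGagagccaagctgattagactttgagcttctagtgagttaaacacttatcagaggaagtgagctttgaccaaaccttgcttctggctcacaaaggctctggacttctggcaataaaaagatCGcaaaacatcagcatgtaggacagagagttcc
Nampt: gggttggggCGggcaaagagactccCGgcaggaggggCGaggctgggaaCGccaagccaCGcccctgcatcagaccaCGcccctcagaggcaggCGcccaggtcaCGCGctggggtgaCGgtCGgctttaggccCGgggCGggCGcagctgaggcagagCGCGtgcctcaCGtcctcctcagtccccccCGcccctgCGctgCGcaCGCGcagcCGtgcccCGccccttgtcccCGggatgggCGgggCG

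Kmo holds 5 CpGs in this window and Haao 6, like Qprt with 6, and the median over 27025 promoters is 6. Afmid holds 15, Nadsyn1 23, Nmnat1 24 and Nampt 27, which is more than 91.8% of all promoters have. Not every member's window is given. CpGs were counted after the values had been seen, and the counts describe these windows only. Searched on both strands, CACGTG (E-box), TGANTCA (AP-1) and CAAAGTCCA (HNF4) were found in 0 of the 8 genes' windows. They occur in 6.05%, 6.87% and 0.381% of all promoters of this length.

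The same comparison in cKO kidney called 0 of the 10 genes. At that call rule 0.0197% of all genes were called, which is 3 genes. At an unadjusted p under 0.05 it was 2 of the 10, Afmid and Kynu, against 11.5% of all genes. With array weights 2 of the 10 were called (Kynu, 2.24, adjusted p = 0.0066, and Afmid, −0.52, adjusted p = 0.0192). Kynu had 8.29, 32.2, 20.6 and 11.7 FPKM in cKO cisplatin, against 2.63, 2.7 and 6.29 FPKM in cKO untreated libraries. Every treated library lay above every untreated one, with a log2 fold change of 1.89 ± 0.45 (limma adjusted p = 0.12). Afmid had 20.0, 20.5, 18.0 and 19.5 FPKM in cKO cisplatin, against 30.5, 27.1 and 22.4 FPKM in cKO untreated libraries. These groups did not overlap either, at −0.42 ± 0.12 (limma adjusted p = 0.16).

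The other 8 genes were not called at an unadjusted p under 0.05 either. Kmo had 80.7, 95.9, 84.9 and 79.7 FPKM in cKO cisplatin, against 79.3, 77.6 and 79.6 FPKM in cKO untreated libraries (0.11 ± 0.17, limma adjusted p = 0.87). Haao had 145.9, 111.9, 136.2 and 201.4 FPKM in cKO cisplatin, against 172.0, 149.6 and 159.5 FPKM in cKO untreated libraries (−0.14 ± 0.27, limma adjusted p = 0.907). cKO cisplatin replicate 4 was the highest of all 14 in Haao, and the other 3 lay below the untreated range. Acmsd had 19.2, 21.9, 35.9 and 29.6 FPKM in cKO cisplatin, against 30.4, 39.9 and 36.8 FPKM in cKO untreated libraries (−0.44 ± 0.28, limma adjusted p = 0.592). For Nadsyn1, Nampt, Naprt, Qprt and Nmnat1 the log2 differences ran from −0.17 to 0.28, with adjusted p from 0.546 to 0.997. The median over the 10 was 0.04 and over all genes 0.02, and 3 of the 10 had groups that did not overlap, against 12.2% of the genes tested.

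After cisplatin, cKO against WT shows whether the knockout kidney differs once the drug is given. All 10 log2 differences were positive (Nmnat1 reached −0.02 with a library left out) and 6 of the 10 genes were called higher in cKO, namely Afmid, Kmo, Haao, Acmsd, Nampt and Nadsyn1. Called lower were 0 of the 10. Over all genes 26.9% were called, 8.77% as higher and 18.1% as lower in cKO. At an unadjusted p under 0.05 it was 7 of the 10, against 39.2% of all genes. The median difference was 0.43 over the members and −0.11 over all genes. Of the called genes 32.6% were higher in cKO as deposited, 47.3% after median-of-ratios scaling and 48.9% after quantile normalization. The cKO cisplatin and WT cisplatin values given above did not overlap for Afmid, Kmo, Nampt and Nadsyn1, which is 4 of the 10 against 21.2% of all genes. For each of these 4 the exact permutation p was 0.0286, the smallest that 4 against 4 libraries can give (two-sided, 70 arrangements).

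Afmid averaged 19.5 ± 1.07 FPKM in cKO cisplatin and 10.02 ± 0.839 FPKM in WT cisplatin kidneys (SD, n = 4 each), a log2 difference of 0.90 ± 0.11 (limma adjusted p = 2.18e-04). Kmo averaged 85.3 ± 7.41 and 53.3 ± 14.3 FPKM in cKO and WT cisplatin kidneys (0.71 ± 0.16, limma adjusted p = 0.00565). Nadsyn1 had 23.8, 23.4, 25.3 and 27.6 FPKM in cKO cisplatin libraries, all above the WT ones (0.44 ± 0.11, limma adjusted p = 0.00902). These 3 genes held their call under all 16 alternatives. Nampt had 49.5, 59.2, 49.2 and 43.6 FPKM in cKO cisplatin libraries, all above the 37.0 to 41.0 FPKM of WT cisplatin (0.34 ± 0.10, limma adjusted p = 0.026). Nampt was not called without cKO cisplatin replicate 2 (0.26, limma adjusted p = 0.0695) or WT cisplatin replicate 3 (0.31, limma adjusted p = 0.0714), within 0.00586 to 0.0714 over all alternatives.

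Haao averaged 148.9 ± 37.9 FPKM in cKO cisplatin and 83.2 ± 40.4 FPKM in WT cisplatin kidneys (SD, n = 4 each), a log2 difference of 0.91 ± 0.25 (limma adjusted p = 0.0177). Its groups overlapped through WT replicate 1, with an exact permutation p of 0.0857. Acmsd averaged 26.6 ± 7.57 and 14.3 ± 5.47 FPKM in cKO and WT cisplatin kidneys, 0.89 ± 0.26 (limma adjusted p = 0.0227, exact permutation p = 0.0571). Haao lost its call without cKO cisplatin replicate 4 (0.75, limma adjusted p = 0.0582), WT cisplatin replicate 3 (0.71, limma adjusted p = 0.0561) or WT cisplatin replicate 4 (0.81, limma adjusted p = 0.056). Acmsd lost it without cKO cisplatin replicate 3 (0.74, limma adjusted p = 0.0683), cKO cisplatin replicate 4 (0.83, limma adjusted p = 0.0628) or WT cisplatin replicate 3 (0.66, limma adjusted p = 0.0686). With only the 2 cisplatin groups in the fit, the calls of Haao, Acmsd and Nampt were lost (limma adjusted p = 0.073, 0.065 and 0.068), and that of Acmsd also with no filter on low values (limma adjusted p = 0.0541). Over all alternatives the adjusted p ran from 2.66e-04 to 0.073 for Haao and from 0.00762 to 0.0686 for Acmsd.

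The other 4 genes did not pass the test between cKO and WT after cisplatin. Naprt had 39.1, 31.1, 29.1 and 34.3 FPKM in cKO cisplatin, against 34.8, 23.7, 21.5 and 20.1 FPKM in WT cisplatin libraries. Only WT replicate 1 reached into the cKO range, and the difference of 0.43 ± 0.15 lay at the threshold (limma adjusted p = 0.0509). Qprt had 85.7, 64.3, 83.7 and 82.9 FPKM in cKO cisplatin libraries (0.24 ± 0.15 against WT, limma adjusted p = 0.254). Without WT cisplatin replicate 1 Naprt was called higher in cKO (0.59, limma adjusted p = 0.00149), and so was Qprt (0.40, limma adjusted p = 0.014). Over all alternatives Naprt ran from an adjusted p of 0.00149 to 0.149 and Qprt from 0.00779 to 0.587. Kynu overlapped widely (0.42 ± 0.41, limma adjusted p = 0.482). Nmnat1 had 13.6, 10.9, 12.2 and 14.3 FPKM in cKO cisplatin libraries and differed by 0.03 ± 0.11 from WT (limma adjusted p = 0.85).

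Without drug, cKO against WT called 0 of the 10 genes by limma, as it called 0 of all genes (0%). At an unadjusted p under 0.05 it was 0 of the 10 and 0.81% of all genes, a smaller share than that threshold marks with no difference. The fit shares 1 spread among all 4 groups. With only the untreated groups in the fit, 374 of 15193 genes were under that threshold, against 123 here, and 0 were called in either fit. The cause of the small share was not tested. Ripk4 was not called either, so 0 calls do not show that the genotypes were alike. The log2 differences ran from −0.13 ± 0.18 for Kmo to 0.07 ± 0.13 for Afmid, and 5 were positive and 5 negative. Kynu had the widest error, 0.06 ± 0.48. Kmo was at 79.3, 77.6 and 79.6 FPKM in cKO untreated, against 85.7, 83.5 and 90.2 FPKM in WT untreated libraries. It was the only 1 of the 10 whose untreated groups did not overlap, against 6.26% of all genes (exact permutation p = 0.1, the smallest that 3 against 3 libraries can give).

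Whether cisplatin moved the genes differently in cKO and in WT was tested as an interaction (response in cKO minus response in WT) and uses the same libraries as the comparisons above. The difference was positive for all 10 genes and passed the test for 1, Afmid, at 0.82 ± 0.17 (limma adjusted p = 0.0203). Over all genes 4.06% were called, 1.41% as positive and 2.65% as negative, and at an unadjusted p under 0.05 it was 6 of the 10 and 21.4% of all genes. The median was 0.42 over the members and −0.08 over all genes. The call of Afmid was lost without WT untreated replicate 2 (0.73, limma adjusted p = 0.0645), WT untreated replicate 3 (0.84, limma adjusted p = 0.0589), cKO untreated replicate 2 (0.84, limma adjusted p = 0.0512) or cKO untreated replicate 3 (0.71, limma adjusted p = 0.0581), within 0.00629 to 0.0645 over all alternatives. Kmo followed with 0.84 ± 0.24 (limma adjusted p = 0.0649), Acmsd with 0.91 ± 0.40 (limma adjusted p = 0.203) and Haao with 0.88 ± 0.38 (limma adjusted p = 0.205). Kmo was called when WT cisplatin replicate 1, 2 or 3 was left out in turn, at 0.88, 0.97 and 0.65 (limma adjusted p = 0.0331, 0.024 and 0.0359), within 0.00431 to 0.146 over all alternatives. Without WT cisplatin replicate 1, Haao (1.17, limma adjusted p = 0.0132) and Naprt (0.61, limma adjusted p = 0.0268) were called as well. Their ranges over all alternatives were 0.00517 to 0.366 and 0.019 to 0.475. Nmnat1 was at 0.01 ± 0.17 and Kynu at 0.36 ± 0.63.

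A further 46 genes that feed, use or regulate NAD were examined, of which 40 passed the filter. In WT kidney after cisplatin 5 of the 40 rose, 10 fell and 25 were not called, with a median of −0.11. Over all genes 22.3% were called higher and 12.1% lower, with a median of 0.10, so the total called is near the share over all genes. In cKO 0 were called. After cisplatin 10 were called higher and 6 lower in cKO than in WT, against 8.77% and 18.1% of all genes. Without drug 0 were called, and in the difference of responses 2 were called positive, Aadat and Sirt3.

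At the head of the kynurenine route, Tdo2 and Ido1, which open the tryptophan ring in liver and in immune cells, stayed below the filter. Ido2, a related dioxygenase, fell in WT, with 3.78, 2.48, 1.25 and 1.72 FPKM in WT cisplatin, against 8.3, 7.0 and 11.1 FPKM in WT untreated libraries. The log2 fold change was −1.60 ± 0.29 (limma adjusted p = 9.26e-04). Of the 3 aminotransferases that take kynurenine to kynurenic acid, Aadat fell and Kyat1 and Kyat3 were not called. Aadat averaged 49.7 ± 21.1 FPKM in WT cisplatin and 189.5 ± 1.3 FPKM in WT untreated kidneys (SD, n = 4 and 3), −2.01 ± 0.26 (limma adjusted p = 1.02e-04). In cKO Aadat averaged 151.2 ± 23.9 FPKM after cisplatin and 181.3 ± 32.3 FPKM untreated (SD, n = 4 and 3). The difference of its responses was 1.75 ± 0.37 (limma adjusted p = 0.0234).

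Among the salvage and handling genes, Nmrk1, which phosphorylates nicotinamide riboside, fell in WT (−0.44 ± 0.13, limma adjusted p = 0.0216). The mitochondrial NAD kinase gene Nadk2 (−0.92 ± 0.11, limma adjusted p = 8.13e-05) and the NADH hydrolase gene Nudt12 (−0.70 ± 0.14, limma adjusted p = 0.00145) fell too. All 3 were called higher in cKO than in WT after cisplatin, by 0.50, 0.52 and 0.44 (limma adjusted p = 0.0103, 0.0038 and 0.0199). Their differences of responses were not called, at 0.20, 0.56 and 0.48 (limma adjusted p = 0.59, 0.0699 and 0.169). Nmrk1 averaged 109.9 FPKM in cKO and 89.2 FPKM in WT kidneys already without drug (0.30 ± 0.14, not called). In cKO its change after cisplatin was −0.24 ± 0.13 (limma adjusted p = 0.538). Nmnat3, Pnp, Nt5e, Nadk, Nnt, Slc25a51, Naxe (listed as Apoa1bp) and Naxd were not called in any of the 5 comparisons. Nnmt, which methylates nicotinamide and so removes it from salvage, rose in WT. It had 3.1, 3.13, 7.16 and 5.9 FPKM in WT cisplatin, against 0.859, 0.637 and 0.921 FPKM in WT untreated libraries (1.63 ± 0.26, limma adjusted p = 3.83e-04). In cKO cisplatin libraries Nnmt had 1.93, 1.5, 1.28 and 0.546 FPKM, all below WT cisplatin (−1.30 ± 0.24, limma adjusted p = 0.00193).

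Of the 7 sirtuins, NAD-dependent deacylases, 2 fell and 1 rose in WT, where 12.1% and 22.3% of all genes did. Sirt3, the main mitochondrial deacetylase, had 27.1, 31.5, 18.5 and 22.6 FPKM in WT cisplatin, against 56.5, 58.6 and 55.9 FPKM in WT untreated libraries (−1.19 ± 0.13, limma adjusted p = 4.38e-05). In cKO it had 47.9, 47.4, 49.4 and 51.1 FPKM after cisplatin, against 57.1, 53.6 and 54.0 FPKM untreated. The difference of its responses was 1.02 ± 0.19 (limma adjusted p = 0.0159). Sirt7 fell (−0.36, limma adjusted p = 0.0285) and Sirt6 rose (0.56, limma adjusted p = 0.0235) in WT. Of 9 PARPs, which use NAD to build ADP-ribose on proteins, 2 rose in WT, near the 22.3% of all genes. These were Parp9 (0.65 ± 0.20, limma adjusted p = 0.0216) and Parp14 (1.01 ± 0.25, limma adjusted p = 0.00735), and Parp3 joined them as called lower in cKO than in WT after cisplatin. Parp1, the main DNA-damage PARP, was at 59.2 FPKM in WT cisplatin and 59.8 FPKM in WT untreated kidneys (−0.05 ± 0.15, limma adjusted p = 0.841). Of the NAD glycohydrolases, Bst1 rose in WT (0.85 ± 0.29, limma adjusted p = 0.0387), Cd38 was not called (−0.23 ± 0.27, limma adjusted p = 0.555) and Sarm1 stayed below the filter.

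**Figure D3:**
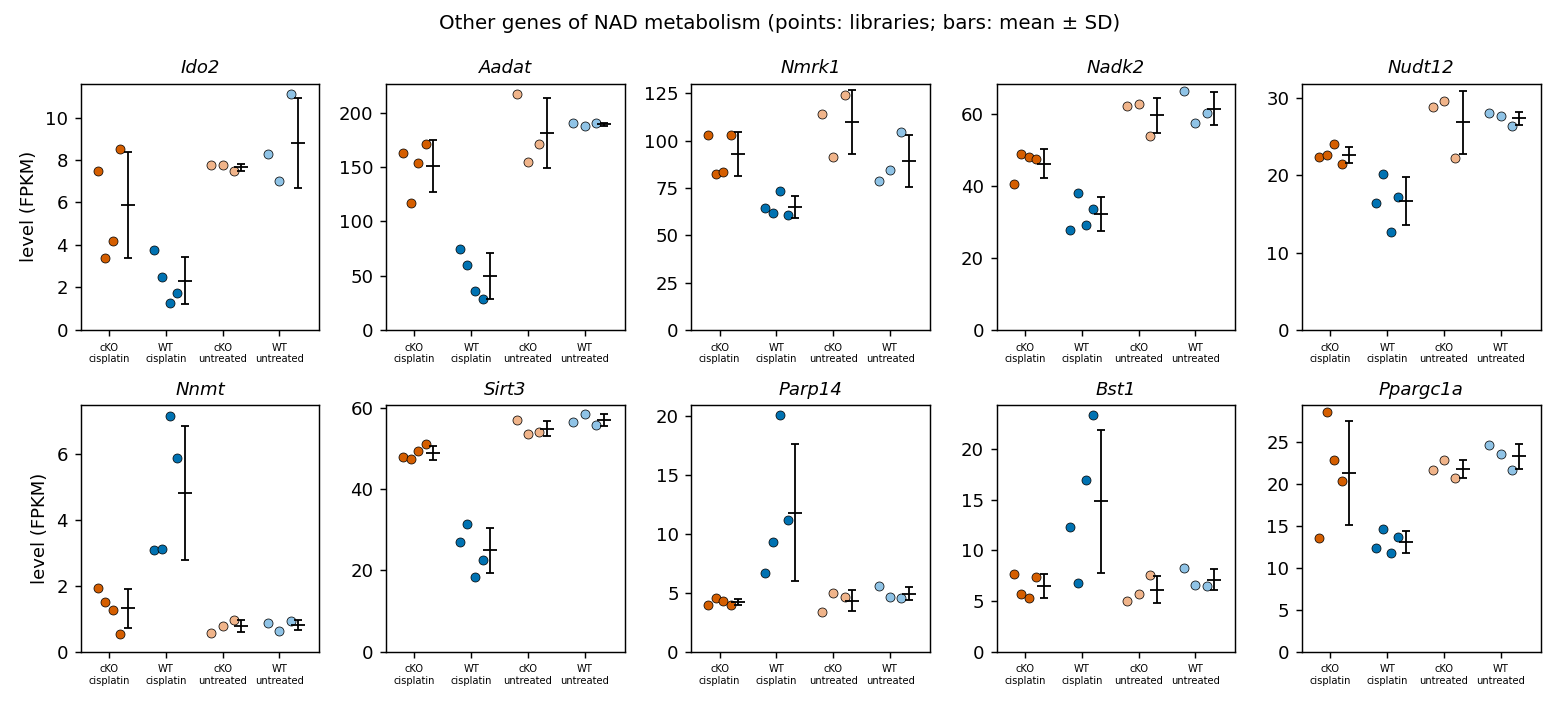
Levels in FPKM, on linear axes from 0, of 10 other genes of NAD metabolism that were called in WT after cisplatin, with a point for each library and the mean ± SD beside each group (n = 4, 4, 3 and 3 from left to right). Aadat and Sirt3 lie lower in WT cisplatin than in the other 3 groups, while Nnmt and Parp14 lie higher there.

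Markers of cell types moved with these changes, and their part in them was not tested. The summed level of 10 proximal tubule markers was 1997 to 3424 FPKM in WT cisplatin and 5510 to 5777 FPKM in WT untreated libraries. Of the 10, 7 were called lower, against 12.1% of all genes. In cKO the sum was 4072 to 5553 FPKM after cisplatin and 5229 to 6062 FPKM untreated, with 0 of 10 called. After cisplatin 8 of these 10 markers were called higher in cKO than in WT, against 8.77% of all genes. WT cisplatin replicate 3 was the lowest WT cisplatin library in Afmid, Kmo, Kynu, Haao, Acmsd and Nampt. It had the lowest proximal tubule sum (1997 FPKM) and the highest macrophage sum (382.9 FPKM). The sum of 11 macrophage markers was 67.2 to 89.7 FPKM in cKO cisplatin, against 101.2 to 382.9 FPKM in WT cisplatin, and 57.2 to 86.9 FPKM in cKO untreated, against 77.3 to 91.6 FPKM in WT untreated libraries. None of the 11 macrophage markers was at 0 in all libraries, and 7 were called higher in WT after cisplatin, against 22.3% of all genes. Macrophages also express Kynu, Kmo and Nampt in other settings. Kynu averaged 18.2 FPKM in cKO cisplatin and 12.7 FPKM in WT cisplatin kidneys, a difference that was not called (0.42 ± 0.41, limma adjusted p = 0.482). The part of macrophages in these levels was not tested. Neutrophil markers summed to 1.03 to 2.78 FPKM in cKO cisplatin and 2.09 to 9.94 FPKM in WT cisplatin, with Mpo at 0 in every library. The injury genes Havcr1 and Lcn2 together reached 6.88 to 183.1 FPKM in cKO cisplatin and 670.7 to 1570 FPKM in WT cisplatin, against 3.99 to 15.4 FPKM in cKO untreated and 7.88 to 8.89 FPKM in WT untreated libraries.

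Other nephron segments and stroma were also examined, and in WT after cisplatin 22.3% of all genes were called higher and 12.1% lower. Between the genotypes after cisplatin 8.77% of all genes were called higher in cKO and 18.1% lower. Both comparisons use the same WT cisplatin libraries, so their counts are not separate. In the thick ascending limb and distal tubule list, 3 of 6 fell and 1 rose in WT after cisplatin, and 3 were called higher in cKO than in WT after cisplatin. The 3 are Slc12a3, the thiazide-sensitive cotransporter gene (−3.55 ± 0.44 in WT, limma adjusted p = 7.77e-05), Pvalb (−3.53 ± 0.37, limma adjusted p = 3.36e-05) and Calb1 (−1.77 ± 0.35, limma adjusted p = 0.00163). The thick ascending limb genes of the list did not fall. Cldn16 rose in WT (1.15 ± 0.26, limma adjusted p = 0.0038). Umod (0.04 ± 0.17, limma adjusted p = 0.877) and Slc12a1 (−0.20 ± 0.26, limma adjusted p = 0.593) were not called. All 4 male-biased proximal tubule genes fell in WT, with a median of −2.37, and were called higher in cKO than in WT after cisplatin. Of these, Slc22a30 and Slc7a13 are also among the proximal tubule markers counted above, so the lists are not separate. Of 7 fibroblast markers 2 rose in WT, Col1a1 and Col3a1, near the 22.3% of all genes, and 5 were not called. The summed level of the 7 was 67.6 to 135.2 FPKM in cKO cisplatin and 81.9 to 596.6 FPKM in WT cisplatin libraries. Untreated it was 84.5 to 128.2 FPKM in cKO and 89.8 to 119.9 FPKM in WT libraries. Of the collecting duct, lymphocyte, endothelial and podocyte lists, 1, 0, 0 and 0 genes rose and 1, 2, 1 and 0 fell in WT.

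**Figure D4:**
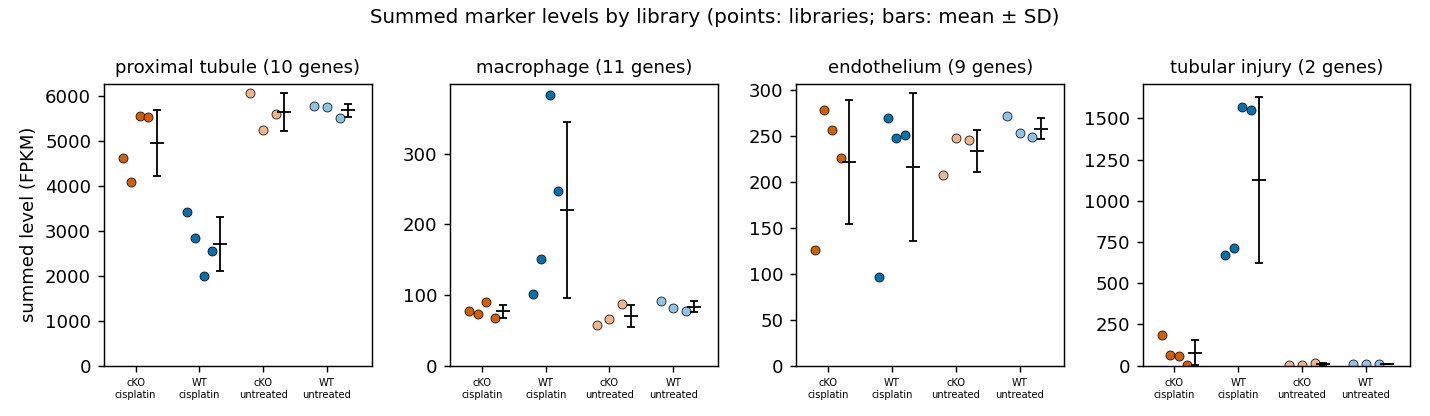
Summed FPKM of the markers of 3 cell types and of 2 injury genes, on linear axes from 0, with a point for each library and the mean ± SD beside each group (n = 4, 4, 3 and 3 from left to right). The proximal tubule sum is lowest in WT cisplatin, at 1997 to 3424 FPKM, where the macrophage and injury sums are highest.

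The genes most like each called member over the 14 libraries were found by the root mean square difference of log2(FPKM + 1), each gene centred on its mean. Haao lay closest to Slc22a18 (0.10) and Coasy (0.12), against a spread of 0.56 for Haao itself. Kmo lay closest to Aldh8a1 (0.11), which encodes an enzyme of the kynurenine route's catabolic branch below ACMSD, against 0.37. Afmid lay closest to Fhl1 (0.15) and Slco1a6 (0.16) against 0.55, and Acmsd to Fut9 (0.26) and Aldh6a1 (0.27) against 0.66. Nadsyn1 had Coro7 and Trappc9 at 0.09 each against 0.28, and Nampt had Mapk14 and Kif1bp at 0.11 each against 0.18. Kynu, with the widest spread of 1.03, had Kcnip2 and Hacl1 nearest, at 0.47 and 0.56. The groups set much of each pattern, so the likeness describes these libraries only.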

How the data were processed

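Per the labels' protocols, the 14 libraries are TruSeq libraries of Trizol-extracted kidney RNA. The submitters' processing notes name HISAT2 2.0.5 and mm10. The read counter, annotation release and strand setting are not given in the sources used here. The authors deposited 1 FPKM value per gene and library, in a table of 49584 genes with 0 columns lacking a sample, and 1 emptied line was not used here. Low FPKM values times exon length fell on steps of 1 read, from which each library's assigned reads (36.7 to 77.0 M) were recovered, with whole reads for all 10 members (tolerance 0.0001 reads). Read numbers bear on counting error only.

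FPKM was used unscaled as log2(FPKM + 1), which understates changes of genes near 1 FPKM. All 4 groups entered 1 limma 3.58.1 fit (R 4.3.3, moderated spread with a trend on the mean, tested on simulated data). P-values are two-sided, adjusted by Benjamini-Hochberg across 15193 genes (mean of 0.5 FPKM or more) and called under 0.05. Single genes were also compared by exact permutation of libraries. Alternatives were another pseudocount, other filters and scalings, array weights, only the groups compared, and libraries left out. The labels give no pairing or batch, and replicate numbers follow record order. Members, lists, motifs and alternatives were chosen with earlier results of these data known. The text names every member, then listed genes called in a comparison, and gives the others as not called. Some genes and 1 sequence are not reported here.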

Additional observations from a re-analysis of the deposited data

Results flagged for a closer look

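The cisplatin response of Afmid, the arylformamidase gene, differed between the genotypes by an interaction test, at 0.82 on the log2 scale (cKO minus WT, limma adjusted p = 0.0203). Qprt in cKO cisplatin replicate 2 lay apart from its group at 64.3 FPKM, against 82.9 to 85.7 FPKM in the other 3 libraries. Among the 20 sets of 4 libraries examined for a stray value, chance marks about 1.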

How the results depend on the processing

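No paired analysis was possible because the labels carry no replicate numbers, and the numbers used here only follow record order. Of 810 alternative values, 720 kept direction and call, 17 lost the call, 34 gained it and 39 changed sign, and those 39 were not called in any fit. Genes called after cisplatin in cKO, 3 as reported, were 12 with no filter, 5 under median-of-ratios scaling, 1 under quantile normalization, 0 with only the groups compared, 874 with array weights, 5 without both cisplatin libraries numbered 1, and 0 to 286 with a replicate left out. Between cKO and WT after cisplatin, 4088 genes became 2124 with only those groups and 2831 to 6196 with a replicate left out (6196 without WT cisplatin replicate 1), and the 6 members became 3 and 3 to 8. For the difference of responses, 617 genes became 255 with no filter, 3429 with array weights, 2217 without both libraries and 85 to 2242 with a replicate left out, and the 1 member became 6 with array weights, 4 without both libraries and 0 to 4. Array weights called 2 members after cisplatin in cKO. Untreated cKO against WT gave 0 to 1 genes with a replicate left out. The cause was not tested.

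Under median-of-ratios scaling Nmnat1 in WT came to −0.04, Qprt in cKO to −0.02, and untreated cKO against WT Acmsd to 0.01, Naprt to 0.01 and Nampt to 0.00. Quantile normalization gave −0.10 for Nmnat1 in WT, −0.04 for Qprt in cKO and 0.00 for Naprt untreated, array weights −0.03 for Kynu untreated, and leaving out both libraries −0.03 for Qprt in cKO. With a replicate left out, Qprt ran from −0.07 to 0.10 and Nmnat1 from −0.00 to 0.15 in cKO, and Nmnat1 from −0.02 to 0.10 between genotypes after cisplatin and from −0.07 to 0.08 in the difference of responses. Untreated, cKO against WT ran from −0.19 to 0.17 for Acmsd, −0.11 to 0.05 for Naprt, −0.11 to 0.06 for Nampt, −0.27 to 0.27 for Kynu, −0.03 to 0.11 for Nmnat1, −0.02 to 0.08 for Haao, −0.06 to 0.10 for Nadsyn1, −0.03 to 0.19 for Afmid and −0.12 to 0.02 for Qprt. Kynu rests on the fewest reads, from 152 a library.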

Other observations

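Genes known to regulate these enzymes or the tubule that makes them were examined beside the members. Ppargc1a, a coactivator known to promote NAD synthesis in mouse kidney, had 12.4, 14.6, 11.7 and 13.7 FPKM in WT cisplatin, against 24.6, 23.5 and 21.7 FPKM in WT untreated libraries. It fell by 0.79 ± 0.18 on the log2 scale (limma adjusted p = 0.00394). In cKO it had 13.6, 28.5, 22.8 and 20.3 FPKM after cisplatin, against 21.7, 22.8 and 20.7 FPKM untreated, so that replicate 1 alone lay low. The proximal tubule factor Hnf4a fell in WT by 0.55 ± 0.17 (limma adjusted p = 0.0206). Ppargc1a and Hnf4a were called higher in cKO than in WT after cisplatin (0.62 and 0.47, limma adjusted p = 0.0141 and 0.0355).

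Nampt is known as a target of the CLOCK and BMAL1 pair. Bmal1, listed under its older symbol Arntl, spread widely among the treated libraries. It had 1.44, 7.44, 2.42 and 0.247 FPKM in cKO cisplatin and 0.96, 10.3, 4.12 and 7.1 FPKM in WT cisplatin libraries. In the same order of libraries Nampt had 49.5, 59.2, 49.2 and 43.6 FPKM in cKO and 40.1, 39.3, 37.0 and 41.0 FPKM in WT. Whether Nampt follows Bmal1 was not tested. The untreated libraries had 0.3 to 1.38 FPKM of Bmal1 in cKO and 0.753 to 0.968 FPKM in WT. Neither Bmal1 (1.55 ± 0.60, limma adjusted p = 0.0607) nor Clock (0.31 ± 0.31, limma adjusted p = 0.469) was called in WT after cisplatin, and the hour at which kidneys were taken is not given in the sources used here.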
